A study of Mus musculus with 6 samples.

Results

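The interstitial collagens are the collagen chains that build fibers, filaments and networks in the space between cells, as opposed to the sheet-like basement membrane. They were taken as every gene symbol of the form Col, number, a, number, with the basement membrane collagens Col4a1 to Col4a6, Col15a1 and Col18a1 left out. This gave 36 genes of the 23183 gene symbols measured in each library. They comprised 11 fibril-forming chains, 9 fibril-associated chains, 6 chains of type VI collagen, 3 short-chain network collagens, 1 anchoring fibril chain, 4 transmembrane collagens and 2 other collagens. A mean of at least 1 FPKM (fragments scaled to transcript length and sequencing depth) over the 6 libraries was reached by 29 of the 36 genes, and these were tested.

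A collagen molecule is a rope-like helix of chains wound around each other, and it forms only where glycine, the smallest amino acid, recurs at a fixed spacing along each chain. Fibril-forming collagens, above all types I and III, assemble into the fibers that give vessel walls and connective tissue their tensile strength. Fibril-associated collagens decorate the surface of these fibers, type VI collagen forms fine beaded filaments around cells, and type VIII collagen forms lattices next to vascular endothelium and smooth muscle. In the brain, fibers of this kind are sparse and lie mainly in the meninges and around the larger vessels, where fibroblasts are known to make them.

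The repeat can be read directly from the genes. In the longest coding transcript of each of the 36 genes, at least 10 triplets starting with GG, as glycine codons do, followed each other at a spacing of 9 bases. The reading frame of these runs was not checked. Such a run was found in 99 of 22148 annotated genes (0.447%), there in the longest transcript of any kind. Among the 36 genes, the run held 344 such triplets in Col3a1, 338 in Col1a1 and 339 in Col1a2. It held 113 in each of the type IX genes Col9a1, Col9a2 and Col9a3, and 23 in Col26a1, the shortest of the set. In the fibril-forming and type IX genes, 14 to 33 exons of that transcript are 54 bases long, a length that holds 6 repeats, whereas Col8a1, Col8a2, Col10a1 and Col26a1 have no exon of this length. An exon of this length is shown for 3 fibril-forming genes that carried most of the collagen signal and for the type IX pair whose values parted between the genotypes, with the glycine codons of the repeat in capitals (a glycine codon between them stays in lower case), from GENCODE M21 on GRCm38 and read on the plus strand on which all 5 genes lie. Numbered in the longest coding transcript, they are exon 38 of Col1a1 (chr11:94947434-94947487), exon 38 of Col1a2 (chr6:4531895-4531948), exon 37 of Col3a1 (chr1:45340255-45340308), exon 22 of Col9a2 (chr4:121051968-121052021) and exon 24 of Col9a3 (chr2:180611260-180611313).
Col1a1: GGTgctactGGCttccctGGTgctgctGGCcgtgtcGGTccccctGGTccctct
Col1a2: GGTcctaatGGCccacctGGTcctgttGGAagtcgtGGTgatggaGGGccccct
Col3a1: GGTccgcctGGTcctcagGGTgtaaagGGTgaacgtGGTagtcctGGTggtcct
Col9a2: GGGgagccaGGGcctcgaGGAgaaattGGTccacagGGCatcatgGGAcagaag
Col9a3: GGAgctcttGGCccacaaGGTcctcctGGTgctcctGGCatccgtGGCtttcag

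RNA from cerebral microvessels of TEKCRIF1 mice was sequenced, with 1 library for each of 3 WT mice (TEK-cre, Crif1 +/+) and 3 KO mice (TEK-cre, Crif1 flox/flox). Values below are given in the order WT 1, WT 2, WT 3 and KO 1, KO 2, KO 3. Both groups carried Cre recombinase, driven by the Tek promoter and thus directed to endothelial cells, and the background was C57BL/6. Age and sex of these mice are not given in the sources used here. Microvessels were spun out of brain homogenate in dextran and held back on a 40-µm strainer, so that other cell types of and around the vessel remained. The question was what endothelial loss of Crif1 (Gadd45gip1), a protein of the mitochondrial ribosome, does to transcripts of the microvessel. Gadd45gip1 (chr8:84831522-84835482) was at 18.8, 15.3 and 16.5 FPKM in WT mice and at 10.8, 7.54 and 10.4 FPKM in KO mice, with every KO library below every WT library (log2 fold change −0.77, SE 0.22; limma p = 0.00534 before adjustment, exact two-sided permutation p = 0.1, the smallest that 3 mice against 3 can give). Depth, estimated from the level at which the lowest values piled up, was 8700000 to 11300000 fragments in WT libraries and 6200000 to 11300000 in KO libraries. At that depth 3 fragments on a transcript of 1 kb amount to 0.266 to 0.482 FPKM, a limit that takes only counting error into account. All 10 endothelial markers examined had values above 0 in every library, with sums of 994 to 1307 FPKM in WT mice against 894 to 1157 FPKM in KO mice. Among these markers Cdh5 (VE-cadherin) was at 90.1 ± 3.02 FPKM in WT mice against 43.8 ± 6.42 FPKM in KO mice, lower in every KO library, and Slco1c1 and Emcn were higher in every KO library (log2 fold changes −1.03, 0.35 and 0.37), 3 genes named after their values were seen. In tissue RNA of this kind, fewer cells of a type and less RNA per cell cannot be told apart.

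Most interstitial collagens had lower mean levels in KO mice, with the most negative log2 fold changes in Col6a2, Col9a2, Col1a1, Col6a1 and Col6a3, while Col9a3, Col8a1 and Col27a1 stood higher. A negative log2 fold change (KO minus WT, on the log2(FPKM + 1) scale) was found for 20 of the 29 genes tested (69.0%), against 50.8% of all 14247 genes tested. The median log2 fold change was −0.35 for the 29 collagens and −0.01 for all genes. When single libraries were left out, the collagen median ran from −0.46 to −0.22. No collagen passed after Benjamini-Hochberg adjustment over all genes, where 0 genes (0.0%) passed and the smallest adjusted p by limma was 0.841. Before adjustment, p was under 0.05 for 7 collagens that were lower, against 3.11% of all genes, and for 3 that were higher, against 2.77% of all genes. Without WT 1 there were 2 lower and 2 higher collagens (349 and 314 of all genes), and without WT 2 there were 3 and 3 (202 and 248 of all genes). All KO libraries lay below all WT libraries for 7 of the 29 (5.7% of all genes), and above them for 3 (5.37% of all genes).

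**Figure D1:**
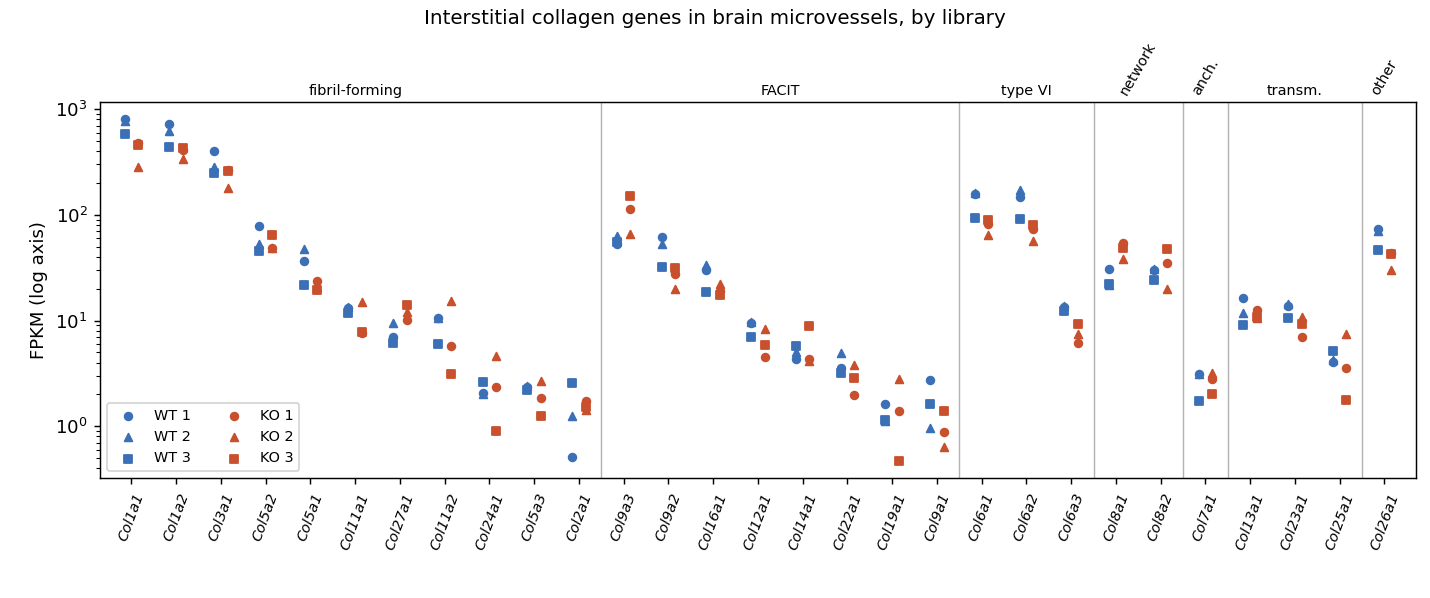
FPKM (log axis) of the 29 collagen genes tested, grouped by class, with blue symbols for the 3 WT libraries, red symbols for the 3 KO libraries and 1 symbol shape per replicate number. Col1a1, Col1a2 and Col3a1 lie highest, and the KO symbols stand clear of the WT symbols for 10 genes, among them Col6a1, Col6a2 and Col6a3 (below) and Col9a3, Col8a1 and Col27a1 (above).

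Type I and type III chains dominated the collagen RNA. Together Col1a1, Col1a2 and Col3a1 made up 67.3% to 70.35% of the FPKM summed over the 36 genes in WT libraries and 61.56% to 65.86% in KO libraries, so that every KO library had a smaller share than every WT library. The sum of these 3 chains was 1933, 1676 and 1264 FPKM in WT mice and 1159, 803 and 1142 FPKM in KO mice. The groups did not overlap, and the lowest WT library, WT 3, was close to the highest KO library. Summed over all 36 genes the values were 2350 ± 483 FPKM in WT mice against 1627 ± 281 FPKM in KO mice (mean ± SD, n = 3 each), and here the groups overlapped, since KO 3 at 1816 FPKM passed WT 3 at 1812 FPKM. As a share of all FPKM in a library, which totaled 381187 to 539408, the 36 genes made up 0.635%, 0.56% and 0.426% in WT mice and 0.326%, 0.342% and 0.404% in KO mice, and these shares did not overlap. The log2 ratio of the means was −0.53 with all members and −0.29 without the 3 leading chains.

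Col1a1 encodes the chain that type I collagen, the main collagen of most connective tissue, contains in the larger number. Its level was 812, 765 and 577 FPKM in WT mice and 481, 286 and 454 FPKM in KO mice. The groups did not overlap, and KO 2 was the lowest library. The means were 718 ± 124 and 407 ± 105 FPKM, or 1.76-fold higher in WT mice (log2 fold change −0.84, SE 0.29, limma p = 0.0156 before adjustment, exact permutation p = 0.1). Without WT 1, and likewise without WT 2, the limma p for Col1a1 was above 0.05. Col1a2, the partner chain of the same molecule, was at 717, 625 and 436 FPKM in WT mice and 411, 337 and 430.0 FPKM in KO mice. These groups did not overlap either, although KO 3 came close to WT 3 (log2 fold change −0.57, SE 0.27, limma p = 0.0607, exact permutation p = 0.1). Col3a1, the chain of type III collagen, which is abundant in the walls of distensible organs and vessels, was at 404, 286 and 251 FPKM in WT mice and 267, 180 and 258 FPKM in KO mice. For Col3a1 the groups overlapped (log2 fold change −0.41, SE 0.27, limma p = 0.155, exact permutation p = 0.3). Without WT 1 the log2 fold change of Col3a1 was −0.21.

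Type V collagen is a minor partner of type I collagen that helps new fibers to form and limits their width. Col5a1 was at 36.6, 47.7 and 21.9 FPKM in WT mice and 23.9, 20.6 and 19.5 FPKM in KO mice. WT 3 lay among the KO libraries, and the log2 fold change was −0.64 (SE 0.27, limma p = 0.0407 before adjustment, exact permutation p = 0.2). Without WT 2 the log2 fold change of Col5a1 was −0.40 and the limma p was above 0.05. Col5a2 was at 78.1, 53.0 and 45.5 FPKM in WT mice and 48.7, 48.9 and 64.2 FPKM in KO mice, with a log2 fold change of −0.10 (SE 0.24). Col5a3, a rarer chain of the same type, was at 2.37, 2.38 and 2.19 FPKM in WT mice and 1.85, 2.70 and 1.24 FPKM in KO mice, with KO 2 above all WT libraries (log2 fold change −0.21, SE 0.32).

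Col27a1, which encodes a fibril-forming chain with a shorter helix known from cartilage, was the fibril-forming gene that stood higher in every KO library. Its level was 7.01, 9.47 and 6.18 FPKM in WT mice and 10.2, 11.96 and 13.9 FPKM in KO mice. Each KO library was above each WT library, with a narrow gap between WT 2 and KO 1 (log2 fold change 0.61, SE 0.23, limma p = 0.0256 before adjustment, exact permutation p = 0.1). The limma p was above 0.05 when WT 1, WT 3 or KO 3 was left out. The chains of cartilage fibers were low and mixed. Col11a1 was at 13.1, 13.6 and 11.9 FPKM in WT mice and 7.63, 15.1 and 7.79 FPKM in KO mice, with KO 2 above all WT libraries and the other KO libraries below them. Col11a2 was at 10.5, 10.5 and 6.06 FPKM in WT mice and 5.72, 15.4 and 3.14 FPKM in KO mice, again with KO 2 highest. Col2a1, the main collagen of cartilage, was at 0.510, 1.25 and 2.59 FPKM in WT mice and 1.75, 1.42 and 1.52 FPKM in KO mice. Col24a1 was at 2.06, 2.03 and 2.65 FPKM in WT mice and 2.35, 4.58 and 0.897 FPKM in KO mice. The KO spread of Col24a1 enclosed the WT values, and the log2 fold change was 0.02 (SE 0.41). In all, 8 of the 11 fibril-forming genes had a negative log2 fold change, 2 of them and 1 positive one with p under 0.05 before adjustment. The class median was −0.34, and −0.15 after each library was corrected for a trend on transcript GC content.

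**Figure D2:**
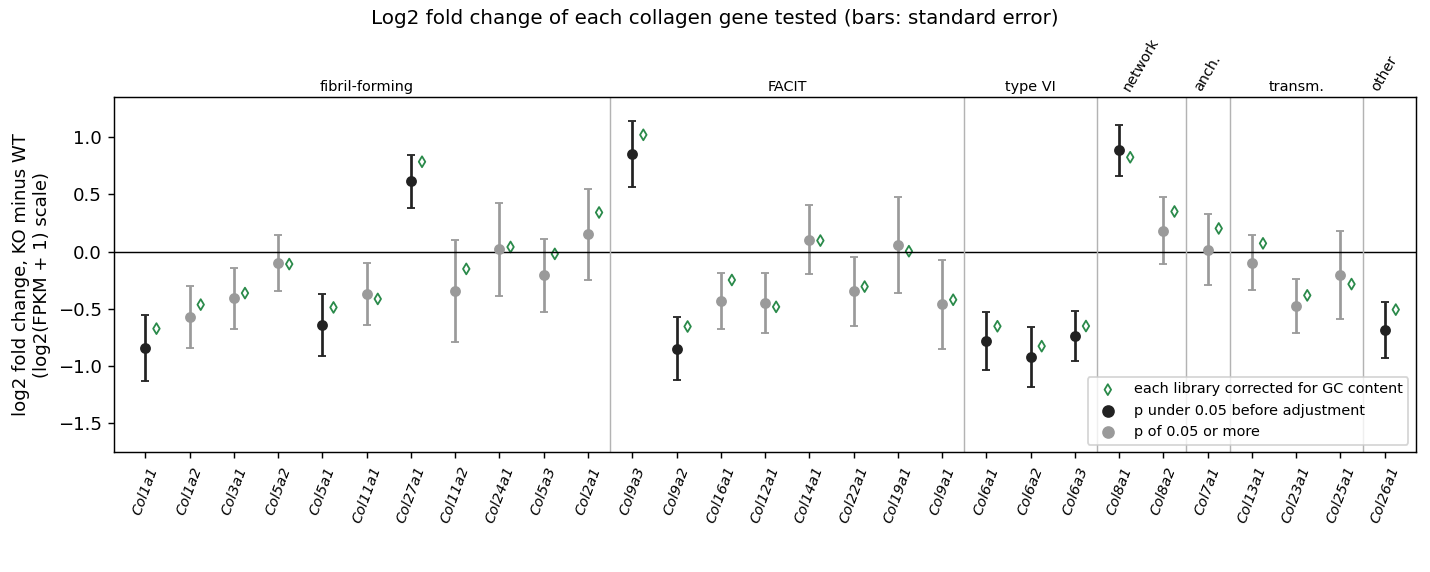
Log2 fold change (KO minus WT, log2(FPKM + 1) scale) of each collagen gene tested, by class, with bars of 1 standard error from limma. Black points mark p under 0.05 before adjustment, grey points the rest, and green diamonds the value after GC correction. The type VI genes, Col1a1 and Col9a2 lie between −0.92 and −0.73, and Col9a3 and Col8a1 lie at 0.85 and 0.89.

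Among the fibril-associated collagens, Col9a2 stood lower and Col9a3 higher in KO mice, although both encode chains of type IX collagen. Type IX collagen sits on the surface of fibers and is best known from cartilage and the eye. Col9a2 was at 62.3, 52.7 and 32.5 FPKM in WT mice and at 27.7, 20.1 and 31.3 FPKM in KO mice. Every KO library was below every WT library, WT 3 by a small margin (log2 fold change −0.85, SE 0.27, limma p = 0.0111 before adjustment, exact permutation p = 0.1). Without WT 1 the log2 fold change of Col9a2 was −0.65, and its limma p was above 0.05. Col9a3 was at 53.3, 62.8 and 55.4 FPKM in WT mice and 114, 65.4 and 149.8 FPKM in KO mice. KO 1 and KO 3 stood far above the WT libraries and KO 2 just above the highest of them (log2 fold change 0.85, SE 0.29, limma p = 0.0138 before adjustment, exact permutation p = 0.1). Without KO 3 the log2 fold change was 0.59, with a limma p above 0.05, and without KO 2 it was 1.18. Col9a1, the remaining chain, was much lower, at 2.72, 0.968 and 1.63 FPKM in WT mice and 0.876, 0.642 and 1.40 FPKM in KO mice, with overlapping groups.

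The libraries with high Col9a3 were also those with high markers of choroid plexus epithelium, the cell layer that secretes cerebrospinal fluid. The 7 markers examined (Ttr, Folr1, Clic6, Kl, Kcne2, Otx2 and Enpp2) summed to 3111 to 3745 FPKM in WT libraries, and to 9514, 3361 and 11396 FPKM in KO mice. Their log2 fold changes were 0.93 to 1.16 with a median of 1.07, and none was at 0 in any library. Of the 7, 4 were higher with a limma p under 0.05 before adjustment, against 2.77% of all genes. KO 2, whose Col9a3 was 65.4 FPKM, had a marker sum within the WT range. The part of these cells in the Col9a3 values was not tested.

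The other fibril-associated genes had overlapping groups. Col16a1 was at 30.0, 33.5 and 18.7 FPKM in WT mice and 19.0, 22.3 and 17.4 FPKM in KO mice (log2 fold change −0.43, SE 0.25). Col12a1, whose product bridges neighboring fibers, was at 9.43, 9.67 and 7.06 FPKM in WT mice and 4.55, 8.35 and 5.85 FPKM in KO mice (log2 fold change −0.44, SE 0.26). In both genes WT 3 was the lowest WT library and lay within the KO range. Col14a1 was at 4.34, 5.0 and 5.71 FPKM in WT mice and 4.32, 4.10 and 8.88 FPKM in KO mice. Col22a1, known from tissue junctions such as that of muscle and tendon, was at 3.54, 4.94 and 3.18 FPKM in WT mice and 1.96, 3.77 and 2.87 FPKM in KO mice. Col19a1 was at 1.63, 1.11 and 1.15 FPKM in WT mice and 1.40, 2.82 and 0.466 FPKM in KO mice. Of these, KO 3 was highest for Col14a1 and KO 2 for Col19a1, and the standard errors of their log2 fold changes (0.30 and 0.42) exceeded the changes themselves (0.11 and 0.06). Over the 8 fibril-associated genes tested, 5 were lower and the median log2 fold change was −0.39, while the class sum was 155 ± 25.2 FPKM in WT mice against 174 ± 45.2 FPKM in KO mice.

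All 3 type VI genes tested stood lower in KO mice. Its molecules combine the products of Col6a1, Col6a2 and one of the longer chains, of which Col6a3 is the usual partner. Col6a1 was at 159, 161 and 94.4 FPKM in WT mice and at 82.2, 64.6 and 88.8 FPKM in KO mice. Col6a2 was at 147, 171 and 91.6 FPKM in WT mice and 74.2, 56.2 and 79.5 FPKM in KO mice. Col6a3 was at 13.5, 13.7 and 12.4 FPKM in WT mice and 6.17, 7.42 and 9.33 FPKM in KO mice. All KO libraries were below all WT libraries for each of the 3 genes. The log2 fold changes were −0.78 (SE 0.26, limma p = 0.0123), −0.92 (SE 0.26, limma p = 0.0059) and −0.73 (SE 0.22, limma p = 0.00742) before adjustment, in the same order, with an exact permutation p of 0.1 for each. For Col6a1 the limma p was above 0.05 without WT 1 and without WT 2. Col6a1 and Col6a2 are neighbors on chromosome 10 (chr10:76708792-76726168 and chr10:76595762-76623630, minus strand), and Col6a3 is on chromosome 1 (chr1:90765923-90843971, minus strand). Summed over the class, levels were 323, 347 and 200.3 FPKM in WT mice and 164, 130.5 and 179 FPKM in KO mice. WT 3 was the library that lay closest to the KO group in the class sum, as it was for type I collagen. Col6a4, Col6a5 and Col6a6, alternatives to Col6a3 that lie side by side on chromosome 9, were not tested, with at most 1.29 FPKM in any library.

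Among the short-chain network collagens, Col8a1 was higher in every KO library. Type VIII collagen is a product of vascular cells and of the corneal endothelium. Col8a1 was at 30.8, 21.5 and 22.3 FPKM in WT mice and at 53.7, 38.0 and 48.5 FPKM in KO mice. No KO library overlapped the WT group, and the means differed 1.88-fold (24.9 ± 5.16 and 46.7 ± 7.98 FPKM; log2 fold change 0.89, SE 0.22, limma p = 0.00253 before adjustment, exact permutation p = 0.1). Col8a2, the partner chain, was at 30.0, 30.8 and 24.3 FPKM in WT mice and 35.0, 19.9 and 47.6 FPKM in KO mice, with KO 2 below the WT libraries and the other KO libraries above them (log2 fold change 0.18, SE 0.29). KO 1 and KO 3, the libraries rich in choroid plexus markers, were also the highest for Col8a1 and Col8a2. The 10 smooth muscle markers summed to 919, 430 and 448 FPKM in WT mice and 1144, 451 and 645 FPKM in KO mice. In this list 9 of the 10 were higher in KO mice (median log2 fold change 0.33) and none was at 0. Before adjustment, 0 of them had a limma p under 0.05, against 2.77% of all genes in the higher direction. KO 2, with Col8a1 at 38.0 FPKM above every WT library, had choroid plexus and smooth muscle sums within the WT ranges. The part of choroid plexus or smooth muscle cells in the Col8a1 values was not tested. The third network gene, Col10a1, a marker of hypertrophic cartilage, was at or below 0.586 FPKM in all libraries and at 0 in WT 1 and KO 1.

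The remaining classes were represented by few genes. Col26a1, an extracellular collagen of short helical stretches, was at 73.6, 70.3 and 46.6 FPKM in WT mice and 43.9, 30.1 and 42.6 FPKM in KO mice. Every KO library was below every WT library (log2 fold change −0.68, SE 0.24, limma p = 0.0182 before adjustment, exact permutation p = 0.1), WT 3 by a small margin, and after GC correction the log2 fold change was −0.51, with a limma p above 0.05, as it also was without WT 1 and without WT 2. The transmembrane collagens Col13a1, Col23a1 and Col25a1 span the membrane of the cell that makes them and are partly shed. Col23a1 was at 13.8, 14.3 and 10.5 FPKM in WT mice and 6.96, 10.8 and 9.28 FPKM in KO mice (log2 fold change −0.48, SE 0.23, limma p = 0.07, exact permutation p = 0.2). Only KO 2 of the KO libraries reached the WT range of Col23a1. Col13a1 was at 16.5, 11.7 and 9.14 FPKM in WT mice and 12.6, 10.5 and 10.8 FPKM in KO mice. Col25a1, a collagen of neurons that is known from amyloid plaques, was at 4.08, 4.23 and 5.21 FPKM in WT mice and 3.56, 7.51 and 1.76 FPKM in KO mice. The KO values of Col13a1 lay within the WT range and those of Col25a1 on either side of it, with log2 fold changes of −0.10 (SE 0.24) and −0.21 (SE 0.38). Col7a1, the chain of the anchoring fibrils that fasten skin to its basement membrane, was at 3.10, 3.13 and 1.75 FPKM in WT mice and 2.82, 3.20 and 2.00 FPKM in KO mice (log2 fold change 0.02, SE 0.31). The 7 genes that were not tested (Col6a4, Col6a5, Col6a6, Col10a1, Col17a1, Col20a1 and Col28a1) lay between 0 and 2.14 FPKM, and their groups overlapped.

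**Figure D3:**
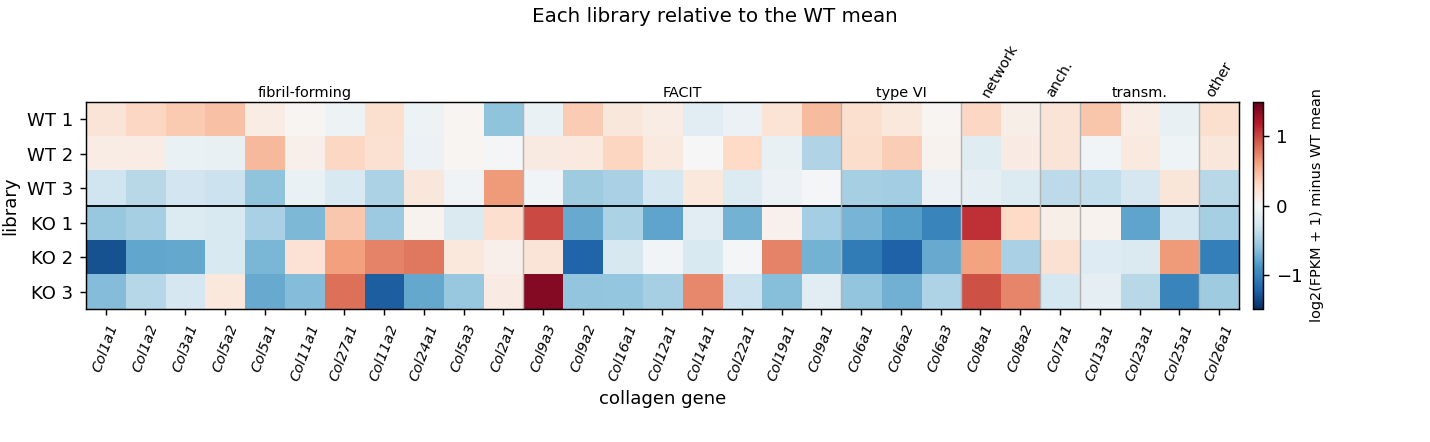
Difference of log2(FPKM + 1) from the WT mean for each of the 6 libraries (rows) and the 29 collagen genes tested (columns, by class), from blue (below the WT mean) to red (above). The 3 KO rows are blue across Col1a1, Col1a2, Col9a2, type VI and Col26a1 and red at Col27a1, Col9a3 and Col8a1, and KO 2 differs in color from KO 1 and KO 3 at Col11a1, Col11a2 and Col25a1.

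The ratio of chains within a library, which is unaffected by scaling between libraries, was also compared for 8 pairs of chains of the same type and for Col3a1 to Col1a1. Of 9 ratios, 3 were higher in all KO libraries and 6 overlapped. Over single genes 5.37% were higher in all KO libraries, and no such share was computed for ratios. The ratio of Col9a3 to Col9a2 was 0.856, 1.19 and 1.71 in WT mice and 4.11, 3.26 and 4.79 in KO mice. The groups did not overlap, and Col9a2 was at its lowest in KO 2. The part of choroid plexus cells in this ratio was not tested. The ratio of Col3a1 to Col1a1 was 0.436 ± 0.0622 in WT mice against 0.584 ± 0.0384 in KO mice, also without overlap. The ratios were not corrected for the libraries' trends on GC content, which differs between Col3a1 (52.5%) and Col1a1 (58.9%). That of Col6a1 to Col6a2 was 1.02 ± 0.071 and 1.12 ± 0.0218. The ratio of Col1a1 to Col1a2 was 1.23 ± 0.0958 in WT mice against 1.02 ± 0.162 in KO mice, and WT 1 at 1.13 lay below KO 1 at 1.17. Col8a1 to Col8a2 was 0.882 ± 0.168 in WT mice against 1.49 ± 0.446 in KO mice, with KO 3 within the WT range. The ratios of Col5a1 to Col5a2, Col6a3 to Col6a1, Col9a1 to Col9a2 and Col11a1 to Col11a2 overlapped as well.

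**Figure D4:**
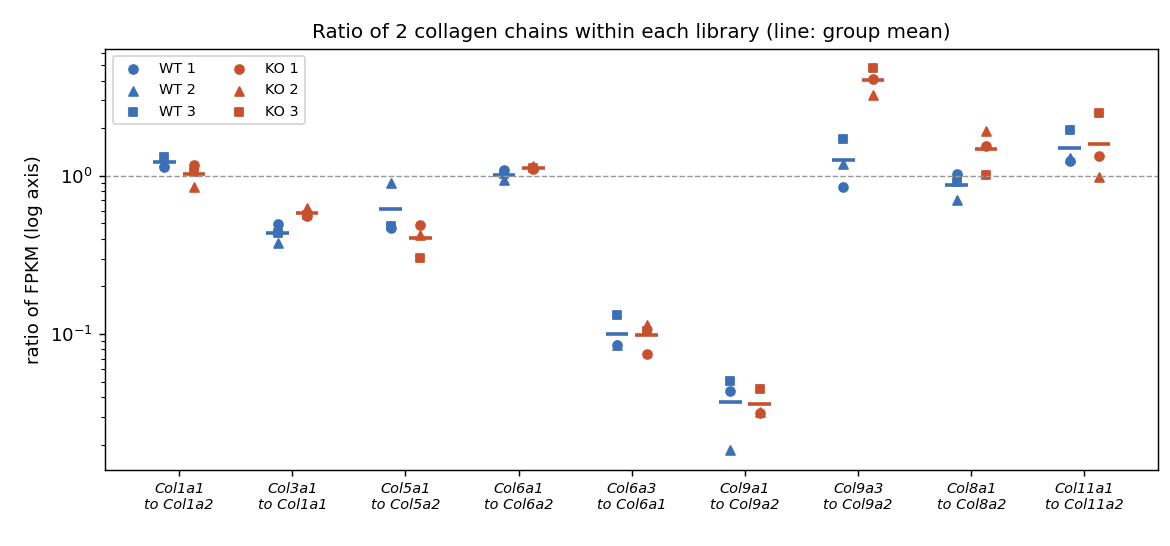
Ratio of the FPKM of 2 chains in each library (log axis), blue for WT and red for KO, with a line at each group mean. The red symbols of Col9a3 to Col9a2 lie between 3.26 and 4.79, above the blue ones at 0.856 to 1.71, and most other ratios overlap.

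A feature that the gene names do not imply is base composition. Transcripts of the 36 genes had a median GC content of 55.4%, against 48.6% for all annotated genes, and 32 of the 36 were above that all-gene median, with Col25a1 lowest (45.9%) and Col11a2 highest (62.9%). The libraries differed in how values tracked GC content. Across 14158 genes, which are not independent replicates, the Spearman correlation of a library's deviation from the mean with GC content was 0.083, 0.31 and 0.15 in WT mice and −0.14, −0.25 and −0.028 in KO mice. With transcript length the same correlation was 0.05, 0.016 and 0.037 in WT mice and −0.30, 0.29 and −0.14 in KO mice, so that KO 2 ran opposite to KO 1 and KO 3. After removal of the length trend, the median log2 fold change of the collagens was −0.33. After the GC trend was removed from each library, 4 collagens were lower with p under 0.05 before adjustment (2.23% of all genes in the same fit) and 3 were higher (2.46%). In that fit 19 of the 29 had a negative log2 fold change, against 51.8% of all genes, and their median was −0.28. Col1a1 was then at −0.67, Col6a2 at −0.83, Col8a1 at 0.83 and Col27a1 at 0.79, all with a limma p under 0.05, whereas Col9a2 at −0.65 and Col5a1 at −0.49 were not under it. With the replicate number as a block in the same fit, Col1a1 was above 0.05 and Col9a2 under it.

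Genes that act on collagen were examined beside its chains. Over all genes tested, 50.8% had a negative log2 fold change. Before adjustment, 3.11% of all genes were lower and 2.77% higher with a limma p under 0.05. Of 21 chaperones and modifying enzymes, which fold and hydroxylate the chains in the endoplasmic reticulum, 16 had a negative log2 fold change with a median of −0.17, and 0 reached p under 0.05 before adjustment in limma. The 2 most abundant were Sparc, a secreted collagen-binding protein, at 668 ± 95.3 and 658 ± 107 FPKM in WT and KO mice, and Serpinh1, the collagen chaperone HSP47, at 259 ± 12.5 and 254 ± 77.2 FPKM. Among 13 enzymes and helpers of procollagen trimming and cross-linking, 11 were tested and 8 were lower (median −0.18). Adamts2, which removes the amino-terminal propeptide of types I and III, was at 22.2 ± 5.73 FPKM in WT mice against 13.4 ± 1.70 FPKM in KO mice (log2 fold change −0.66, limma p = 0.0194 before adjustment, exact permutation p = 0.1). Pcolce2, an enhancer of carboxy-terminal trimming, was at 13.3, 9.86 and 15.7 FPKM in WT mice and 33.7, 15.1 and 42.9 FPKM in KO mice (log2 fold change 1.08, limma p = 0.0114 before adjustment, exact permutation p = 0.2). Like Col9a3, Pcolce2 was high in KO 1 and KO 3 and near the WT level in KO 2.

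Of 22 proteoglycans and glycoproteins that bind fibers, 20 were tested, 15 were lower and the median was −0.11. Over all genes tested, 50.8% were lower, and 3.11% were lower with a limma p under 0.05 before adjustment. The 3 with p under 0.05 before adjustment were fibronectin (Fn1, 299 ± 65.5 and 175 ± 37.4 FPKM, log2 fold change −0.76), fibulin 1 (Fbln1, 51.7 ± 12.4 and 30.1 ± 3.41 FPKM, −0.74) and fibromodulin (Fmod, 270.2 ± 94.2 and 159 ± 25.8 FPKM, −0.71). The groups overlapped for Fmod (exact permutation p = 0.3) and not for Fn1 and Fbln1 (exact permutation p = 0.1 for each). Among 10 collagen receptors, 8 were tested and 7 were lower (median −0.10). Mrc2, an endocytic receptor that clears collagen fragments, was at 51.7 ± 12.04 and 32.4 ± 4.01 FPKM (log2 fold change −0.64, limma p = 0.0163 before adjustment, exact permutation p = 0.1). The 8 basement membrane collagens left out by the definition had 6 lower members and a median of −0.33, near that of the interstitial set, with Col4a6 (−0.62) and Col15a1 (−0.45) under 0.05 by limma before adjustment. The groups overlapped for Col4a6 (exact permutation p = 0.2) and not for Col15a1 (exact permutation p = 0.1).

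Markers of fibroblasts, the main known source of fibrillar and type VI collagen, were lower on average as well. Of 10 fibroblast markers 9 were tested, all 9 had a negative log2 fold change (median −0.33), and 1, Aldh1a2 (−0.75), was under 0.05 by limma before adjustment. Without Ptgds, which alone exceeded all others together, they summed to 802, 647 and 503 FPKM in WT mice and to 554, 453 and 493 FPKM in KO mice. The order of the WT libraries was that of type I collagen, with WT 1 highest and WT 3 lowest, and the groups overlapped. Summed pericyte, microglia and erythroid markers had the same order of WT libraries. Dpt was at 0 in 4 libraries, and 2 of the markers, Dcn and Lum, are also counted among the fiber-binding proteoglycans. Pericyte markers, of which 8 of 10 were lower (median −0.20), summed to 879 to 1388 FPKM in WT mice against 913 to 1047 FPKM in KO mice, with none at 0. Astrocyte markers summed to 699 to 857 FPKM in WT mice against 542 to 576 FPKM in KO mice, with all 8 lower (median −0.35). Before adjustment, p was under 0.05 in the lower direction for 3 of 8 astrocyte, 3 of 7 oligodendrocyte and 2 of 10 pericyte markers. The same held for 1 each of the microglia, neuron, endothelial and erythroid markers, against 3.11% of all genes. A negative log2 fold change was found for 50.8% of all genes. Lower levels were also seen for 7 of 8 microglia markers (median −0.32), 6 of 7 oligodendrocyte markers (−0.48), 6 of 8 neuron markers (−0.17), 7 of 10 endothelial markers (−0.13) and 4 of 5 erythroid markers (−0.28), and in these lists the summed levels of the groups overlapped. The part of these cells in the collagen values was not tested.

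**Figure D5:**
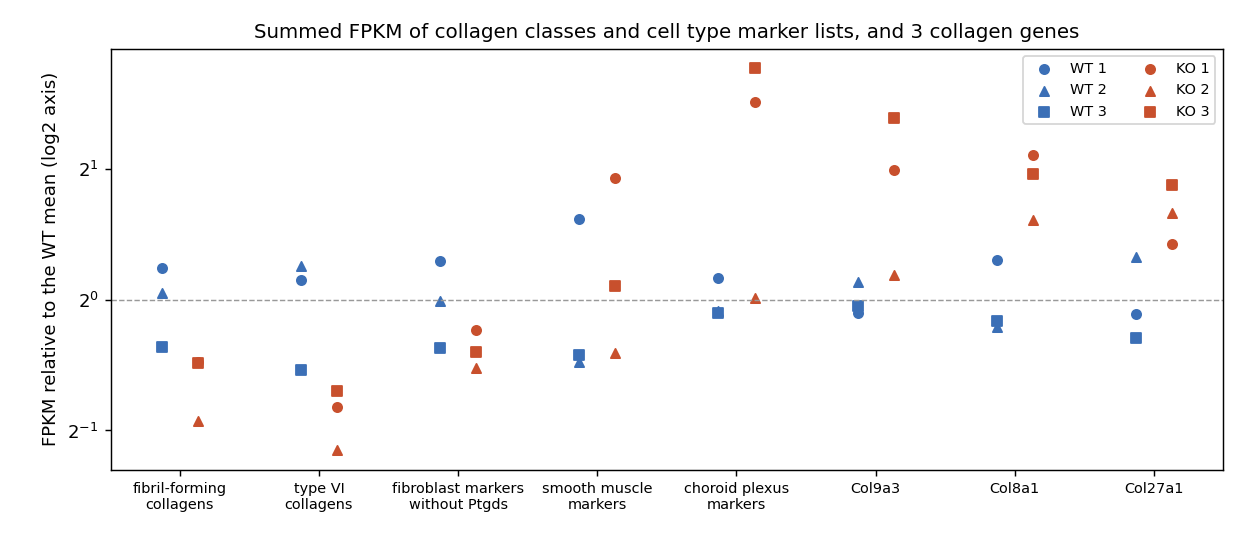
Summed FPKM of 2 collagen classes and 3 marker lists, and FPKM of 3 collagen genes, in each library relative to the WT mean (log2 axis, dashed line at the WT mean), blue for WT and red for KO. The type VI sum is below WT in all 3 KO libraries, the fibroblast sum overlaps, and KO 1 and KO 3 are high for both choroid plexus markers and Col9a3 while KO 2 is at the WT level of the markers.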

How the data were processed

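Paired-end libraries from microvessel RNA of 3 WT and 3 KO mice (NEBNext Ultra II Directional, HiSeq X10) were trimmed with FASTX_Trimmer and BBMap and mapped with TopHat by the authors, who deposited FPKM values per gene symbol and library. The submitters' processing notes also name mm10. The program that gave the FPKM values, its annotation and any normalization between libraries are not given in the sources used here. The paper's DESeq2 test needs read counts, which were not used here.

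Genes whose FPKM averaged 1 or more over the 6 libraries (14247) entered limma 3.58.1 (R 4.3.3) on the log2(FPKM + 1) scale, with the prior variance as a trend on level and no added scaling, and all of their p-values were adjusted together by the Benjamini-Hochberg method. SE is limma's standard error. Fold changes of low genes are understated on this scale. Libraries were grouped by their labelled genotype. For single genes an exact permutation test, two-sided, was run on FPKM as well. The collagen set, its classes and all gene and marker lists were chosen with earlier results of these data known. Values in every library are given for each collagen with a mean of at least 1 FPKM, and genes of the related lists are named where p was under 0.05 before adjustment, or else the 2 of highest mean. Transcript length, GC content and sequences come from GENCODE M21 (GRCm38), which matched 22148 symbols directly and 654 by synonym, with 381 unmatched. GC and length trends were removed per library by loess (span 0.3). Depth was estimated from values under 0.3 FPKM, multiplied by transcript length, in genes with 1 annotated transcript. The level at which they piled up was assumed to be 1 fragment and rested on 54 to 116 genes per library. Each mouse gave 1 library, so p-values rest on the spread between libraries, in which mouse and preparation cannot be told apart. Alternatives were a pseudocount of 0.1, other filters and scalings, a replicate block, no trended variance, GC and length corrections, and leaving out each library.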

Additional observations from a re-analysis of the deposited data

How the results depend on the processing

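Over 17 alternatives, Col6a2, Col6a3 and Col8a1 kept p under 0.05 before adjustment in limma in all 17, Col9a3 in 16, Col9a2 and Col6a1 in 15, Col1a1 and Col27a1 in 14, Col26a1 in 13 and Col5a1 in 7. The count of collagens under 0.05 was 10, and 7 to 12 with other pseudocounts, filters, scalings, variance settings and corrections. When single libraries were left out it ran from 4 (without WT 1, 2 lower and 2 higher) to 14 (without KO 2), with 6 without WT 2 (3 lower and 3 higher), and the count over all genes, 838 in the main comparison, ran from 450 (without WT 2) to 1871 (without KO 2), with 510 without KO 1. Over the same omissions the number of collagens lower in KO mice ran from 20 to 23, the median log2 fold change from −0.46 (without KO 2) to −0.22 (without KO 1; −0.22 without WT 1 and −0.23 without KO 3), and the fibril-forming median from −0.42 (without WT 3) to −0.21 (without WT 1; −0.22 without KO 1, −0.23 without WT 2 and −0.23 without KO 3). GC correction gave a fibril-forming median of −0.15, and removing the filter gave a median of −0.22 for all collagens. The direction turned with a pseudocount of 0.1 for Col24a1 (−0.049) and Col19a1 (−0.027), and with GC correction for Col13a1 (0.073, with or without the replicate block). Leaving out single libraries turned it for 10 genes without a call, namely Col5a2 (−0.26 to 0.12), Col11a2 (−0.89 to 0.10), Col24a1 (−0.36 to 0.42), Col2a1 (−0.15 to 0.47), Col14a1 (−0.20 to 0.27), Col19a1 (−0.29 to 0.41), Col8a2 (−0.092 to 0.52), Col7a1 (−0.18 to 0.15), Col13a1 (−0.28 to 0.11) and Col25a1 (−0.63 to 0.18). The cause was not tested. The titles number both groups 1 to 3, but deviations of same-numbered libraries did not correlate (r = 0.037, 0.027 and 0.002), so the numbers were not taken as pairs. With the replicate number as a block, 871 genes and 10 collagens were under 0.05, and with GC correction and the block 714 genes and 7 collagens, where Col1a1 was above 0.05 and Col9a2 under it, the reverse of GC correction alone. Col10a1 was above the limit of 3 fragments in 3 of 6 libraries, so its level was not resolved at this depth.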
